A study of Rattus norvegicus with 18 samples.

Results

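The glutathione and thioredoxin antioxidant enzymes were followed as 60 genes of the 14217 genes with a named probe set on a rat expression array. Members were chosen by gene symbol alone: 20 glutathione S-transferases (Gst), 3 microsomal glutathione S-transferases (Mgst), 7 glutathione peroxidases (Gpx), 5 peroxiredoxins (Prdx), 16 genes whose symbol starts with Txn, 3 superoxide dismutases (Sod1 to Sod3) and Cat, Nqo1, Gclc, Gclm, Gsr and Srxn1. The rule reads symbols and no measured values. Each gene was read from the probe set with the highest mean over the 18 arrays, and 6 of the 60 had more than 1 to choose from. The symbol rule also brought in genes that are not antioxidant enzymes in the strict sense. Txnl4a and Txnl4b encode spliceosome proteins, several of the 7 Txndc genes encode thioredoxin-fold proteins of the endoplasmic reticulum, and Txnip encodes an inhibitor of thioredoxin. Prdx1, Gsta2 and Gsta5 occurred only on the 2 probe sets with several symbols and were not analysed here.

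Superoxide dismutases turn superoxide into hydrogen peroxide, which catalase, glutathione peroxidases and peroxiredoxins then remove. For the glutathione peroxidases and peroxiredoxins, the electrons come from glutathione and from thioredoxin. Glutathione is made in part by the glutamate-cysteine ligase subunits Gclc and Gclm and recycled by glutathione reductase (Gsr). Thioredoxin is recycled by thioredoxin reductases (Txnrd). Glutathione S-transferases join glutathione to reactive electrophiles such as products of lipid peroxidation. In a transplanted heart, reactive oxygen species arise at reperfusion and later from the NADPH oxidase of infiltrating phagocytes, while cardiac mitochondria are a steady source.

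In the study, hearts of Wistar Furth (RT1.Au) rats were grafted into the abdomen of ACI (RT1.Aa) rats, both inbred strains, and all animals were adult males. The untreated group received a transplant only. The cyclosporine group received oral cyclosporine at 10 mg/kg/day from day 0 to day 2, a dose below the therapeutic range with which the grafts are described as acutely rejected. The cyclosporine plus peptide group received the same course and 1 mg/kg of an allochimeric peptide, [a1h1/u]-RT1.Aa, into the portal vein when the heart was grafted. Heart allografts and T cells were taken from each group on days 1, 3 and 7. Every graft was therefore allogeneic, and no isograft or native heart was among the arrays. The strain label of all 18 samples, T cells included, is Wistar Furth, and the labels do not name the organ or the sorting step behind the T cells or say whether RNA was pooled.

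There was 1 array for each tissue, treatment and day, so 9 heart and 9 T cell arrays. The deposited values are linear intensities per probe set, with medians of 210.2 to 230.9 in hearts and 194.5 to 209.9 in T cells. Intensities were used as log2(intensity + 16), which understates the change of weak signals, and a difference of 1 on this scale is a 2-fold change in a strong signal. Differences are given ± SE from limma, a linear model with a moderated spread, and genes are called at a Benjamini-Hochberg adjusted p below 0.05 over all probe sets tested. A day difference is the mean of 3 same-treatment differences and a treatment difference the mean of 3 same-day differences. Without a second array of any combination, p-values rest on the moderated residual spread of the whole fit, which may be partly technical. That spread is what treatment and day leave unexplained over all arrays of the fit, not only over those compared. A probe set was tested where it read above the 40th percentile of its array on at least 3 arrays of the fit. That percentile lay between 126.3 and 144.6. In hearts 53 of the 60 members were tested, and in T cells 46. Gpx2, Gpx6, Gsta3, Gsta3l1, Gstm3, Gstm6l and Gsto2 were tested in neither. Intensities of different genes come from different probes and are not compared with each other. Intensities of 3 arrays are always given in the order untreated, cyclosporine, cyclosporine plus peptide.

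The tissue labels were checked on marker genes. Summed intensities of 10 cardiomyocyte markers ran from 105857 to 133503 in hearts and from 491 to 834 in T cell arrays, and those of 13 T cell markers from 62096 to 90269 in T cell arrays. Within hearts, the T cell markers summed to 1734 to 2840 on day 1 and 22752 to 28144 on day 7. The macrophage markers summed to 13428 to 14315 on day 1 and 50591 to 53160 on day 7, while the endothelial markers summed to 12228 to 13680.1 on day 1 and 5554 to 6993 on day 7. The T cell arrays also carried macrophage markers (29283 to 51271), and 1 of them, untreated day 1, stood apart, with neutrophil markers summing to 38056 against 1157 to 3323 on the other 8. An index of RNA integrity was the 3′ over 5′ signal of the beta-actin control probe sets. It was 1.84 to 2.44 in day 1 hearts, 1.644 to 1.865 in day 3 hearts and 1.41 to 1.43 in day 7 hearts. In the T cell arrays it was lower, at 1.268 to 1.398. The same index for GAPDH stayed between 1.495 and 1.649 in all hearts.

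Many genes of this group are known to be induced by the transcription factor NRF2 through the antioxidant response element, whose core is written TGACNNNGC. RefSeq promoters of assembly GRCr8 were available for 51 of the 60 members. Not matched were Gpx8, Gsr, Gstm6l, Gstt1, Gstt2, Mgst2, Prdx6, Sod3 and Txnip. In the 250 bases before the annotated start, these core letters occurred on either strand in 11 of 51 members (21.6%), against 11.0% of 27457 genes and 10.1% of 33469 promoters. The letters TGANTCA, an AP-1 like motif, occurred in 4 of 51 members (7.84%), against 6.99% of genes. Gstp1 and Gstm5 held both motifs, and in Gstp1 the matches overlapped. Srxn1 and Mgst1 held only the second. A match is a description of these letters and not evidence that a factor binds there. Below, 6 of the matches are shown with their surroundings, 5′ to 3′ on the strand of the gene, with the core letters in capitals. Gstp1 at chr1:210769713-210769812 (minus strand), Gstm7 at chr2:198260320-198260379 (minus strand) and Gstz1 at chr6:112525356-112525428 (plus strand) are shown because these genes fell on day 7. Gclm at chr2:213031917-213032016 (plus strand), Txnrd1 at chr7:22755929-22756028 (minus strand) and Sod2 at chr1:50050169-50050249 (minus strand) are shown because they did not pass the test on that day. In Gclm, Gstz1, Txnrd1 and Sod2 the core is read on the other strand, so the capitals hold its reverse complement.
Gstp1: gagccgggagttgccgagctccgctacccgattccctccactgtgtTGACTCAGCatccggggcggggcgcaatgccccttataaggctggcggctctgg
Gstm7: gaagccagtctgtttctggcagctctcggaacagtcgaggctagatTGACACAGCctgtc
Gstz1: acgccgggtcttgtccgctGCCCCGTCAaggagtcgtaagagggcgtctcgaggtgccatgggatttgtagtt
Gclm: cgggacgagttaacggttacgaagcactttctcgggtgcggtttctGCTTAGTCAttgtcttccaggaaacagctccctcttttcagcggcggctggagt
Txnrd1: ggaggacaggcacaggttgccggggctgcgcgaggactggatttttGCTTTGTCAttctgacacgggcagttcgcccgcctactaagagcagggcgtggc
Sod2: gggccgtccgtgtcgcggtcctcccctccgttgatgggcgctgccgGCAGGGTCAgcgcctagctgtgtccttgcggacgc

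Of the 11 members with the core letters, 4 fell between day 1 and day 7 in hearts (Gstm5, Gstm7, Gstp1 and Gstz1), and Txndc11 rose. Over all probe sets tested 33.8% fell and 30.9% rose, and of the 53 members tested 29 fell and 7 rose, so nothing is read from the motif. Another 4 did not pass the test (Gclm, Sod2, Txndc5 and Txnrd1), and 2 were not tested (Gpx2 and Gsta3).

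**Figure D1:**
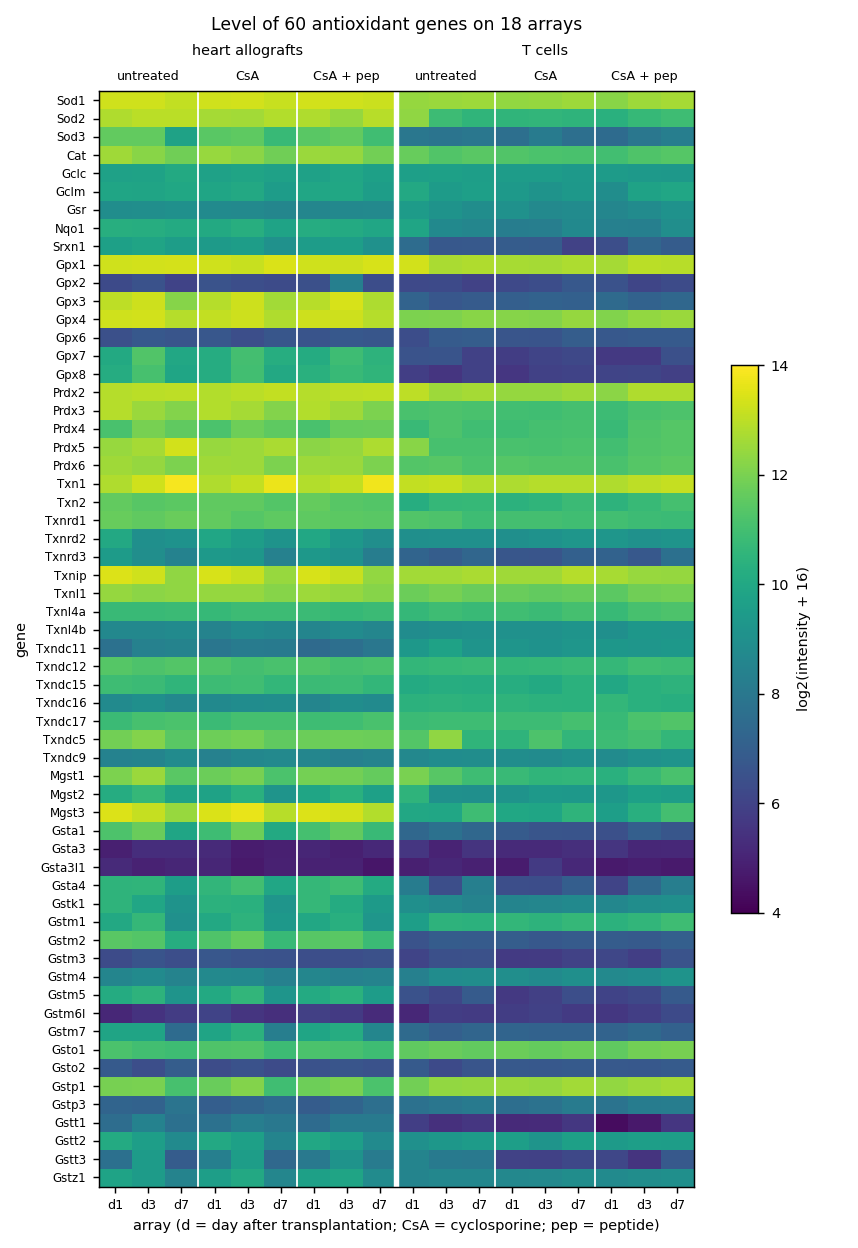
Level of each of the 60 genes (rows, grouped by family) on each of the 18 arrays (columns, by tissue, treatment and day) as log2(intensity + 16), from dark (4) to bright (14). Rows such as Gpx3, Gpx7, Gpx8, Gstm2 and Gsta1 are bright in the 9 hearts and dark in the 9 T cell arrays, and Txnip, Sod3 and Gstm7 darken in the day 7 hearts.

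The first question was how these genes changed in the grafts with time. Between day 1 and day 7, 7 members rose and 29 fell of the 53 tested. The 7 include Gstp3, which passed the filter only through the day 7 hearts, where it is high. Over all 19737 probe sets tested, 30.9% rose and 33.8% fell, so the share of risers among the members was below the background and the share of fallers above it. The median difference of the 60 members was -0.21, against -0.022 over all probe sets. Of the 36 calls, 28 were also made under every one of the 12 settings run, which include leaving out each treatment in turn. The others were Sod1 (8 settings), Gstp3 and Txnl1 (9 each), Nqo1, Prdx2, Srxn1 and Txn2 (10 each) and Mgst1 (11). By family, 11 of 15 tested Gst, 3 of 3 Mgst, 2 of 5 tested Gpx, 2 of 3 Sod and 2 of 3 Txnrd genes fell, whereas 3 of 5 peroxiredoxins rose. Whether heart and T cell arrays, or arrays of different days, came from the same rats is not given. Because a graft is a mixture of cells, fewer cells of a type and less RNA per cell cannot be told apart here.

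Thioredoxin 1 (Txn1), the cytosolic disulfide reductase that reduces peroxiredoxins and ribonucleotide reductase, showed the largest rise. Its intensities were 7167, 7167 and 7418 on day 1, 9951, 8548 and 8600.5 on day 3 and 14796, 13235 and 14252 on day 7. Txn1 rose by 0.96 ± 0.057 (adjusted p = 6.1e-06) on the log2 scale, and each day 7 heart read above each earlier heart. Its inhibitor Txnip, which also restrains glucose uptake, went the opposite way, from intensities of 11506, 10670.1 and 10821 on day 1 through 9923, 9206 and 9177 to 5192, 5619 and 5295. Txnip fell by 1.03 ± 0.054 (adjusted p = 3.76e-06), with all 3 day 7 hearts below all others and with little spread between treatments. Both genes also differed between days 1 and 3, where Txn1 rose by 0.31 ± 0.057 (adjusted p = 0.008) and Txnip fell by 0.22 ± 0.054 (adjusted p = 0.0206).

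The mitochondrial branch of the thioredoxin system did not follow Txn1. Txn2, the mitochondrial thioredoxin, had intensities of 3078, 3039 and 3207 on day 1 and 2844, 2547 and 2545 on day 7 and fell by 0.23 ± 0.067 (adjusted p = 0.0151). Txnrd2, the mitochondrial thioredoxin reductase, went from 1047, 954 and 1009 through 491, 750.3 and 620.1 to 536, 552 and 472. It fell by 0.93 ± 0.13 (adjusted p = 0.000398), and its 3 day 1 hearts read above all others. Txnrd3, a thioredoxin and glutathione reductase known from testis, fell by 1.04 ± 0.091 (adjusted p = 3.29e-05), with the difference between -1.03 and -1.06 under each treatment. The cytosolic reductase Txnrd1 had intensities of 3270.3, 3125 and 2949 on day 1 and 3319, 2935 and 2765 on day 7, overlapping between the days. It did not pass the test (difference -0.054 ± 0.059, adjusted p = 0.448). Its second probe set did not pass on day 7 either (-0.133 ± 0.056, adjusted p = 0.0656). On day 3 that probe set was lower than on day 1 (-0.30 ± 0.056, adjusted p = 0.00858).

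The 5 peroxiredoxins, which use thioredoxin to reduce peroxides, split by direction. Prdx3, the mitochondrial member, fell by 0.77 ± 0.053 (adjusted p = 1.17e-05), from intensities of 7613, 7449 and 7393 on day 1 to 4497, 4469.5 and 4186 on day 7. Prdx6, the member that uses glutathione instead, fell by 0.54 ± 0.045 (adjusted p = 2.59e-05), with intensities of 6102, 6116 and 5976 on day 1 and 4199, 4156 and 4151 on day 7. The day 1 and day 7 hearts did not overlap for either gene. Prdx5 rose by 0.54 ± 0.098 (adjusted p = 0.00159), but unevenly, with day 7 intensities of 10114, 6797 and 6950.5 against 5552, 5598 and 4949 on day 1. The untreated day 7 heart stood well above the other day 7 hearts. Prdx4, the member of the endoplasmic reticulum, had intensities of 2213, 2288 and 2237, 3921, 3533 and 3221 and 2971, 2945 and 3325 on days 1, 3 and 7. The untreated and cyclosporine hearts were highest on day 3 and the peptide-treated heart on day 7. Prdx4 rose by 0.66 ± 0.081 (adjusted p = 0.0026) by day 3 and was still higher by 0.45 ± 0.081 (adjusted p = 0.00155) on day 7. Prdx2, a cytosolic member abundant in red cells, rose by 0.17 ± 0.042 (adjusted p = 0.00752). Srxn1, the sulfiredoxin that repairs over-oxidized peroxiredoxins, fell by 0.31 ± 0.078 (adjusted p = 0.00851), from 806, 679 and 715 on day 1 to 747, 524 and 519.5.

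**Figure D2:**
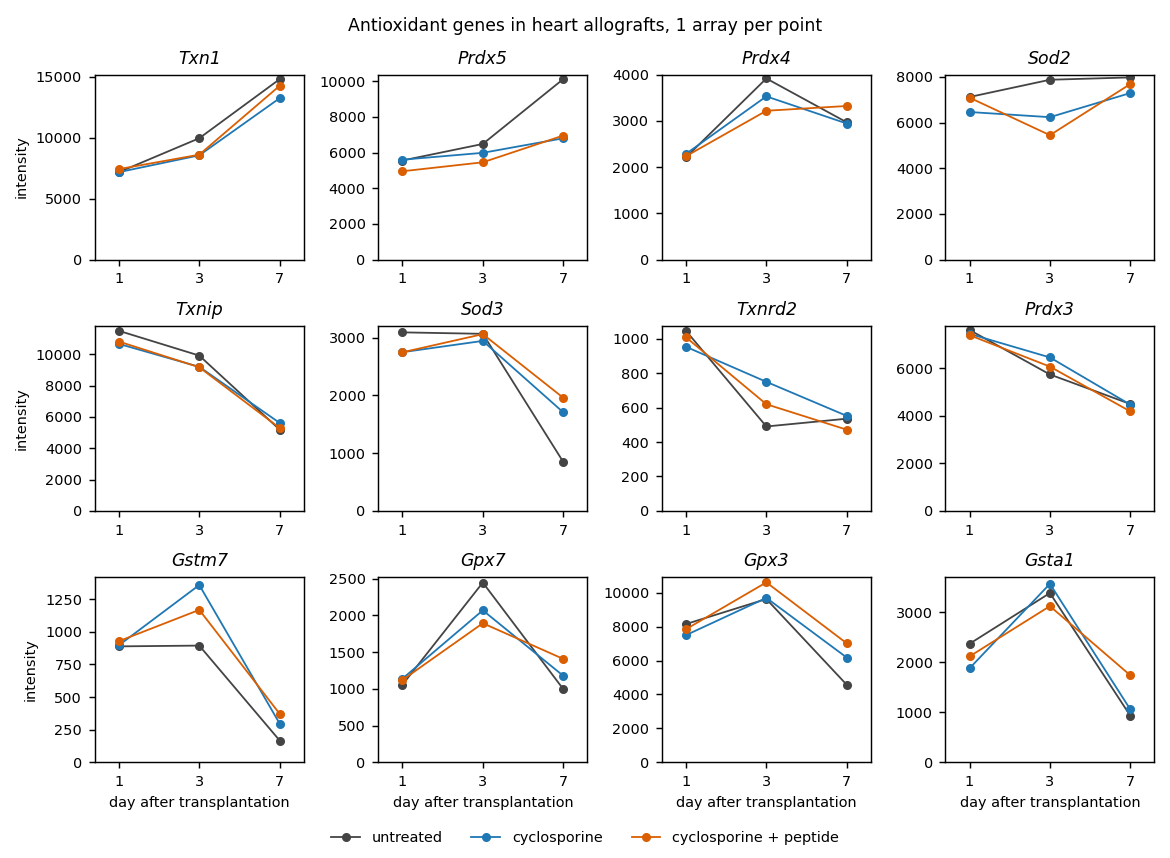
Intensity (vertical axis, linear, from 0) of 12 genes in heart allografts against the day after transplantation, 1 array per point, coloured by treatment. Txn1 climbs to at least 13235 on day 7 while Txnip drops to 5619 or less, Gpx7 and Gsta1 peak on day 3, and the untreated day 7 heart is the lowest for Sod3, Gstm7 and Gpx3.

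Both the extracellular superoxide dismutase Sod3, an enzyme of the vessel wall, and catalase fell. Sod3 intensities were 3091, 2747 and 2745 on day 1, 3065, 2943 and 3059.8 on day 3 and 849, 1707 and 1959 on day 7. Sod3 fell by 1.00 ± 0.24 (adjusted p = 0.00624), and the untreated day 7 heart was the lowest of the 9. Without the untreated arrays the difference was -0.58 ± 0.064 (adjusted p = 0.000317). The cytosolic Sod1 fell by 0.14 ± 0.042 (adjusted p = 0.019), from 9968, 9959 and 10295 to 8682, 9223 and 9517. The mitochondrial, inflammation-inducible Sod2 had intensities of 7122, 6464 and 7093 on day 1, 7878, 6238 and 5449 on day 3 and 7979.8, 7295 and 7689 on day 7. The day 7 hearts read above the day 1 hearts, but the difference did not pass the test (0.15 ± 0.093, adjusted p = 0.186). The residual spread behind that test also includes the day 3 hearts. Catalase (Cat), the peroxide-splitting enzyme of peroxisomes, fell by 0.67 ± 0.058 (adjusted p = 3.37e-05), from 6024, 5572 and 5795 on day 1 through 4701, 4836 and 5459 on day 3 to 3675, 3584 and 3682. The day 7 hearts lay below all earlier hearts for Cat, Sod1 and Sod3.

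Of the glutathione peroxidases, Gpx3, the secreted form, went from intensities of 8161, 7505 and 7856 on day 1 through 9638, 9706 and 10623 to 4574, 6182 and 7022 and fell by 0.42 ± 0.11 (adjusted p = 0.0115) from day 1 to day 7. All 3 day 7 hearts lay below the others, the untreated one furthest, and without the untreated arrays the difference was -0.22 ± 0.049 (adjusted p = 0.00762). Gpx4, which reduces lipid hydroperoxides in membranes, fell by 0.34 ± 0.046 (adjusted p = 0.000324), from 9937, 8675 and 9555 to 7566, 7137 and 7498. Its second, weaker probe set gave a difference of 0.0071 ± 0.13 (adjusted p = 0.966), so the probe sets of this gene disagreed. Gpx1, the widespread cytosolic form, had intensities of 9836, 9996 and 9959.6 on day 1 and 10495, 10999.9 and 10615 on day 7 and did not pass (difference 0.11 ± 0.053, adjusted p = 0.105), although the day 7 hearts all read above the day 1 hearts. Gpx7 and Gpx8, both of the endoplasmic reticulum, did not differ by the test between days 1 and 7 but stood high on day 3. Their day 7 minus day 1 differences were 0.098 ± 0.14 (adjusted p = 0.544) and -0.082 ± 0.15 (adjusted p = 0.659).

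The glutathione S-transferases made up the largest block of fallers. Gstm7, a mu class enzyme, showed the largest difference, with intensities of 889, 897 and 929 on day 1, 895, 1359.6 and 1169 on day 3 and 167, 296 and 372 on day 7. It fell by 1.71 ± 0.18 (adjusted p = 7.74e-05), and the highest day 7 heart read below the lowest earlier heart. Gstt2, a theta class enzyme, fell by 1.36 ± 0.082 (adjusted p = 6.21e-06), from 1091, 1030.0 and 1013 to 424, 347 and 423. Gstk1, the kappa class enzyme of mitochondria and peroxisomes, fell by 1.27 ± 0.099 (adjusted p = 1.97e-05), from 1451, 1374 and 1587 to 543, 585 and 679. Gstz1, which isomerises maleylacetoacetate in tyrosine breakdown, fell by 1.07 ± 0.13 (adjusted p = 0.000209), from 882, 758 and 804 to 337, 366 and 439. For these 4 genes the day 1 and day 7 hearts did not overlap under any treatment. Gstm5, Gsta1, Gstm1, Gstm2, Gstp1, Gsta4 and Gsto1 fell too, by 0.32 to 0.81. Gsta4 is known for conjugating the lipid aldehyde 4-hydroxynonenal, and its intensities were 1426, 1508 and 1605 on day 1 and 752, 946 and 1079.6 on day 7. Gstp1, the pi class enzyme, went from 3893, 3349 and 3562 to 2173, 1945 and 2288. Gstm5 went from 1129.7, 1070.5 and 1079.7 on day 1 through 1379, 1513 and 1336 on day 3 to 555, 583 and 716 on day 7. Gstm2 went from 2781, 2396 and 2655 to 1188, 1676 and 1799 and Gstm1 from 1027, 1035 and 998 to 497, 634 and 599. Among the tested mu class genes, Gstm4 was the one that did not pass. The single transferase called as higher was Gstp3. Its weak intensities were 131, 112 and 105 on day 1 and 213, 165 and 183 on day 7. Gstp3 passed the filter only through the day 7 hearts, where it is high. Its day 1 intensities lay below the filter percentile of their arrays, so no size is given for its difference. Gstt1 and Gstt3, like Gstm4, did not pass the test. Members of the alpha, mu and theta classes are close relatives in sequence, so signal shared between their probes cannot be told from their own.

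The 3 microsomal transferases, membrane enzymes with glutathione peroxidase activity, all fell between days 1 and 7. Mgst3 went from intensities of 11314, 11026 and 11279 to 5667, 7716 and 7349 and fell by 0.71 ± 0.10 (adjusted p = 0.00044). Mgst1 fell by 0.47 ± 0.13 (adjusted p = 0.0117), from 4134, 3432 and 3785 to 2786, 2296 and 3156, and Mgst2 by 0.39 ± 0.089 (adjusted p = 0.00529), from 1155, 841 and 919 to 850.5, 570.0 and 809. The day 7 hearts lay below the day 1 hearts for Mgst1 and Mgst3, but for Mgst2 the untreated day 7 heart read above the cyclosporine day 1 heart.

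None of the 3 members for glutathione synthesis and recycling passed the test. Gclc, the catalytic subunit of the rate-limiting ligase, had intensities of 839, 829 and 826 on day 1 and 1062, 839 and 816 on day 7 (difference 0.11 ± 0.098, adjusted p = 0.344). Its modifier subunit Gclm had 919.9, 933 and 940.0 and 976, 729 and 739 (difference -0.20 ± 0.11, adjusted p = 0.138), and Gsr had 469, 425 and 373 and 508, 371 and 400.0 (difference 0.007 ± 0.079, adjusted p = 0.942). Days 1 and 7 overlapped for all 3. For Gclm the untreated day 7 heart read above every day 1 heart and both treated ones below. Nqo1, the quinone reductase often taken as an NRF2 target, fell by 0.22 ± 0.072 (adjusted p = 0.0288), from 1206, 1056 and 1138 to 1085, 882 and 956, with overlap of the untreated day 7 heart. Among the other thioredoxin-fold genes, Txndc11 and Txndc17 rose (by 0.47 and 0.28) and Txndc15 and Txnl1 fell (by 0.26 and 0.21). Txndc11 read 198, 228 and 159 on day 1 and 337, 264 and 231 on day 7. Those other Txnl1 probe sets that were tested gave larger falls, with differences of -0.38 and -1.07. The spliceosome genes Txnl4a and Txnl4b did not pass, with differences of 0.049 ± 0.060 (adjusted p = 0.497) and 0.11 ± 0.086 (adjusted p = 0.274).

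**Figure D3:**
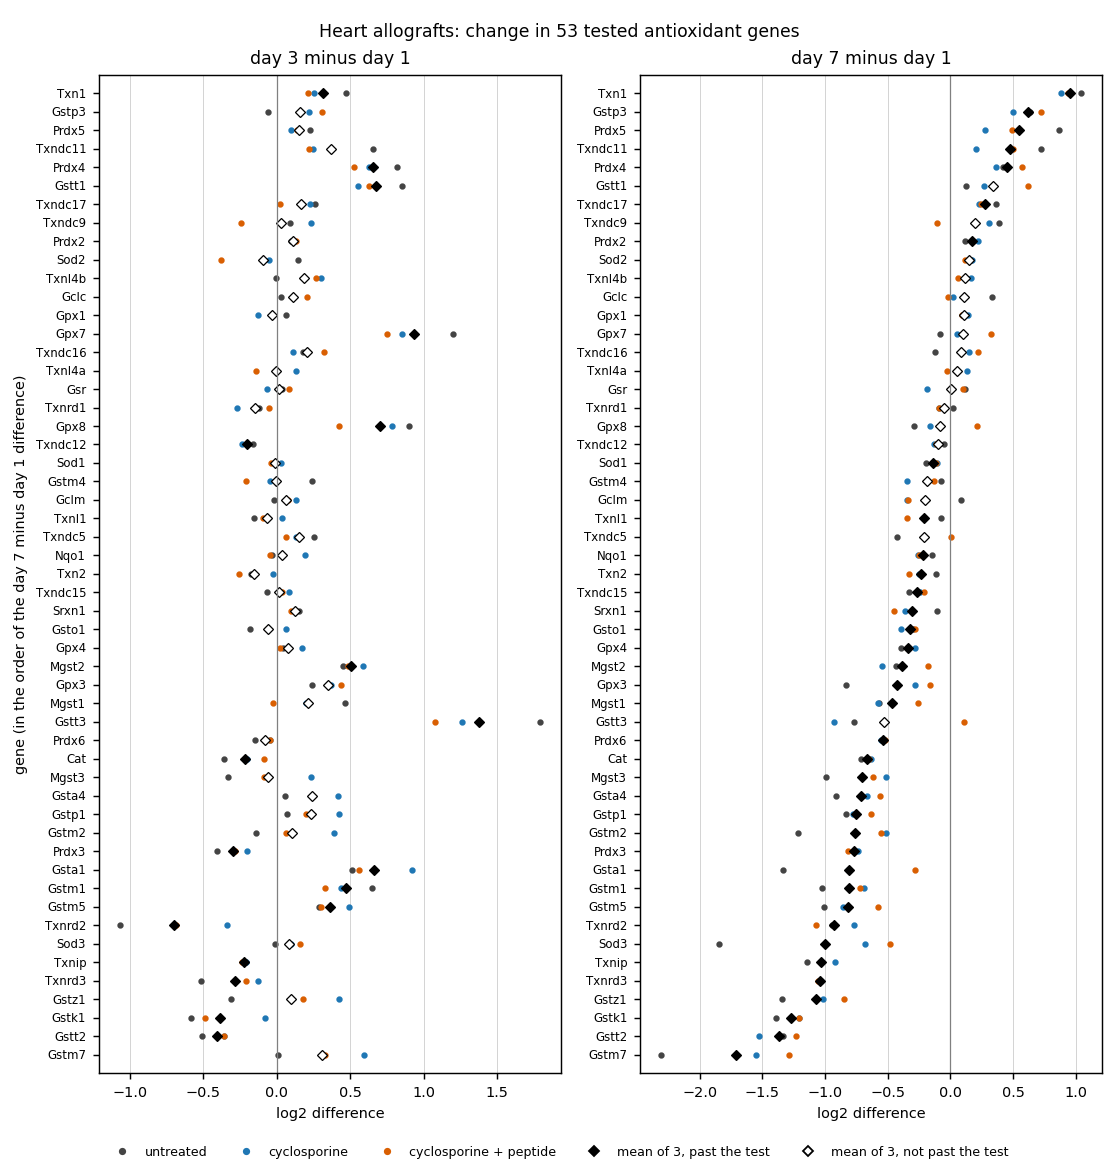
Differences from day 1 on the log2 scale (horizontal axis) in heart allografts for the 53 tested genes (rows, in the order of the day 7 difference), day 3 on the left and day 7 on the right. Coloured dots are the 3 treatments and diamonds their mean, filled where the gene passed the test. On day 7 most filled diamonds lie left of 0, down to -1.71 for Gstm7, and Txn1 lies furthest right at 0.96; on day 3 Gstt3 (1.38) and Gpx7 (0.93) lead.

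The cell markers and the RNA index moved with the day. Of the 12 T cell markers tested 12 rose between days 1 and 7 (median difference 3.21 over the list), of 8 macrophage markers 7 rose (1.95), of 6 endothelial markers 6 fell (-1.01) and of 10 cardiomyocyte markers 6 fell and 1 rose (-0.30). Of 6 neutrophil markers 5 fell (-1.79). The beta-actin ratio was lower on day 7, as given above. Their part in the members' differences was not tested. The 29 fallers differed in how far they went under each treatment: the drop was largest in the untreated series for 17, against 46.7% of the 6674 probe sets that fell. This was described and not tested. It was the case for Sod3 and Gstm7, whose untreated differences were -1.84 and -2.31, against -0.48 to -0.68 and -1.29 to -1.55 in the treated series.

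Between day 1 and day 3, 10 members rose and 8 fell of 53 tested, against 14.6% and 12.9% of all probe sets. Of these 18, 13 were also called on day 7, 9 in the same direction and 4 in the opposite one (Gsta1, Gstm1, Gstm5 and Mgst2). Both comparisons share the day 1 arrays. Gstt3, a theta class transferase, rose by 1.38 ± 0.26 (adjusted p = 0.00924), from intensities of 189, 301 and 251 to 694, 743 and 548, and read 104, 150.3 and 271 on day 7. Gpx7 went from 1056, 1138 and 1119.8 to 2447, 2069 and 1893 and rose by 0.93 ± 0.14 (adjusted p = 0.00396). Gpx8 went from 1143, 1163 and 1276 to 2144, 2015 and 1713 and rose by 0.70 ± 0.15 (adjusted p = 0.015). These 3 genes had no overlap between the day 1 and day 3 hearts. Gsta1, an alpha class transferase, rose by 0.66 ± 0.19 (adjusted p = 0.0383), from 2369, 1878 and 2116 to 3384, 3569 and 3122, before falling to 931, 1057 and 1739 on day 7. Gstt1, Gstm1, Mgst2 and Gstm5 rose as well, by 0.68, 0.47, 0.51 and 0.36. Of the fallers, Txnrd2 went furthest, by 0.70 ± 0.13 (adjusted p = 0.00856), and the untreated day 3 heart was its lowest of that day. Gstt2, Gstk1, Prdx3, Txnrd3, Cat and Txndc12 fell by 0.20 to 0.41.

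The day 3 count depended on single treatments. It was 7 without the cyclosporine arrays, 8 without the cyclosporine plus peptide arrays and 18 without the untreated arrays. The share of all probe sets called went from 27.5% to 10.5%, 8.36% and 18.4% in the same settings. Only Gpx7, Mgst2 and Prdx4 were called in all 12 settings. The fibroblast markers moved with these genes, with 5 of 7 higher on day 3 (median difference 0.76) and 0 lower, and so did 7 of 8 macrophage markers (0.71). Their part was not tested. Between day 3 and day 7, 4 members rose (Txn1, Gstp3, Prdx5 and Gpx1) and 30 fell, against 26.9% and 29.4% of all probe sets. Of the 4, Gstp3 passed the filter only through the day 7 hearts. In that interval Gstm7 fell by 2.02 ± 0.18 (adjusted p = 5.6e-05), Gstt3 by 1.91 ± 0.26 (adjusted p = 0.000507) and Gsta1 by 1.47 ± 0.19 (adjusted p = 0.000399), the largest drops of the 30. The day 1 and the day 7 comparisons share arrays with this one, so the 3 counts are not independent.

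Other genes of the same pathways were read from fixed lists, of which the glutathione list includes the members Gclc, Gclm and Gsr. Over all probe sets tested 30.9% rose and 33.8% fell between days 1 and 7, which is the background for each list count here. No shift of a list is read from counts near these shares. Of 17 tested NRF2 regulators and other NRF2 targets, 5 rose and 7 fell between days 1 and 7. Nfe2l2, which encodes NRF2 itself, rose by 0.48, and the heme-degrading Hmox1 by 0.70. The pentose phosphate enzymes Tkt, Pgd and Taldo1, which supply NADPH to Gsr and the thioredoxin reductases or recycle its sugars, rose by 1.00, 1.00 and 0.88. Ephx1, Cbr1 and Me1 fell by 0.93, 0.92 and 0.86. Of 18 tested genes of glutathione synthesis, recycling and glutaredoxins, 7 rose and 5 fell. Glrx, the cytosolic glutaredoxin, rose by 1.14 and Gss, the glutathione synthetase, by 0.71, while the extracellular glutathione-cleaving Ggt5 fell by 0.92. Of 9 tested sources of reactive oxygen and nitrogen, 6 rose and 1 fell. These included the phagocyte NADPH oxidase subunits Cybb (2.15), Cyba (1.60), Ncf1 (1.65) and the oxidase activator Rac2 (1.95), and Nos3, the endothelial nitric oxide synthase, fell by 0.49. Of 19 other antioxidant proteins tested, 7 rose and 5 fell, among them Sesn3 (up by 1.33), the plasma ferroxidase Cp (up by 1.20), Sesn1 (down, -1.08) and the metallothionein Mt2A (down, -0.90).

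The second question was whether treatment changed these genes in the grafts. No member was called in any of the 3 heart treatment comparisons by limma. For cyclosporine minus untreated 0% of 19737 probe sets were called, for cyclosporine plus peptide minus untreated 0% and for cyclosporine plus peptide minus cyclosporine 0%. At an unadjusted p below 0.05 there were 10, 9 and 2 members, and 2288, 3156 and 954 probe sets. The lowest adjusted p for cyclosporine minus untreated was that of Mgst2, which read 1155, 841 and 919 on day 1, 1583, 1269.8 and 1289.7 on day 3 and 850.5, 570.0 and 809 on day 7. The cyclosporine heart was the lowest on each day (difference -0.44 ± 0.089, adjusted p = 0.179). Srxn1 followed, with a difference of -0.34 ± 0.078 (adjusted p = 0.213). Gsr had differences of -0.27 ± 0.079 (adjusted p = 0.304) with cyclosporine and -0.30 ± 0.079 (adjusted p = 0.203) with cyclosporine plus peptide, which share the untreated arrays. Mgst1 and Sod2 had cyclosporine minus untreated differences of -0.36 ± 0.13 (adjusted p = 0.359) and -0.20 ± 0.093 (adjusted p = 0.459). With cyclosporine plus peptide, Txndc11 had a difference of -0.51 ± 0.12 (adjusted p = 0.195), Gsta4 of 0.35 ± 0.083 (adjusted p = 0.198) and Prdx5 of -0.32 ± 0.098 (adjusted p = 0.226). Each of these had the same sign on all 3 days, and none passed after adjustment over all probe sets. Where the peptide was added to cyclosporine, Txndc11 had the largest difference among the members that kept 1 sign (-0.39 ± 0.12, adjusted p = 0.953).

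The same comparisons in T cells called no member by limma. Of 19464 probe sets tested, 0% were called for day 3 minus day 1, 0.575% for day 7 minus day 1 and 0% for day 7 minus day 3. The 3 treatment comparisons called 0% each. At an unadjusted p below 0.05 there were 3, 13 and 5 members for the day comparisons, and 6, 13 and 1 for cyclosporine minus untreated, cyclosporine plus peptide minus untreated and cyclosporine plus peptide minus cyclosporine. The corresponding probe set counts were 1615, 4654 and 1050 for days and 2216, 4636 and 857 for treatments. Mgst3 came nearest with time. Its intensities were 1009.5, 971 and 759 on day 1, 964, 920.0 and 1265 on day 3 and 1908, 1426 and 2025 on day 7, and the day 7 minus day 1 difference was 0.95 ± 0.17 (adjusted p = 0.0574). All 3 day 7 arrays read above all others. Txn2 had 1191, 1355 and 1409.9 on day 1 and 1625, 1801 and 2099 on day 7, without overlap, and a difference of 0.47 ± 0.085 (adjusted p = 0.0584). Prdx4 had small same-sign differences of 0.36 ± 0.10 (adjusted p = 0.471) on day 3 and 0.32 ± 0.10 (adjusted p = 0.12) on day 7. Gsta4, with 274, 68.7 and 49.6 on day 1 and 305, 110.5 and 292 on day 7, had a difference of 0.98 ± 0.50 (adjusted p = 0.27) that came mostly from the cyclosporine plus peptide series.

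Gstt3 separated untreated from treated T cells. It read 346, 256 and 244 on days 1, 3 and 7 in untreated T cells, 46.6, 45.3 and 56.8 with cyclosporine, and 53.9, 29.8 and 95.7 with cyclosporine plus peptide. Every untreated array lay above every treated array, and the treated intensities lay below the 40th percentile of their arrays. Gstt3 thus entered the T cell test through the untreated arrays alone. With the percentile standing in for the treated values, it was at least 1.04 lower on the log2 scale with cyclosporine and at least 1.04 lower with cyclosporine plus peptide. Neither difference was called (adjusted p = 0.199 and 0.113). In hearts, the cyclosporine difference of Gstt3 was 0.40 ± 0.26 (adjusted p = 0.607). Whether treatment differences depended on the tissue was tested by limma after these values were seen. It called 0.00448% of 22327 probe sets for cyclosporine, 0.00448% for cyclosporine plus peptide, and 0 members for either. At an unadjusted p below 0.05 there were 9 and 9 members, and 2282 and 4625 probe sets. The 2 treatments share the untreated arrays, so they are not independent evidence. Gsta1 was likewise above the 40th percentile only on the 3 untreated arrays (147, 199 and 146 on days 1, 3 and 7), with treated arrays at 70.4 to 114, and was not called. Mgst1 had a cyclosporine difference of -0.81 ± 0.28 (adjusted p = 0.395), and Gstz1 a cyclosporine plus peptide difference of 0.31 ± 0.086 (adjusted p = 0.119). For Gclc the differences were -0.17 ± 0.076 (adjusted p = 0.456) and -0.24 ± 0.076 (adjusted p = 0.135).

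The untreated day 1 T cell array held the highest T cell value for 17 of the 60 members and the lowest for 15. Other arrays held more extremes. The cyclosporine plus peptide array was highest for 22 members on day 7 and lowest for 22 on day 1. These counts therefore do not set the untreated day 1 array apart. Sod2 read 5142 on the untreated day 1 array, against 1272 to 1870 on the other 8. Prdx5 read 4744 against 1988 to 2647, Nqo1 931 against 288 to 472, Mgst1 4091 against 1284 to 2711 and Mgst2 1431 against 486 to 813. Gstm1 and Gstp1 were lowest there, at 764 against 1346 to 1872 and 3749 against 5316 to 6393. On the same array the neutrophil gene S100a9 read 17774 against 515 to 1892, B and plasma cell markers summed to 32647 against 12084 to 22536, and T cell markers to 62096 against 79902 to 90269. The part of these other cells in the member values was not tested. Without that array, 0 members were called in any of the 6 T cell comparisons. Without all day 1 arrays, Gpx4, Mgst2, Prdx5 and Txndc17 were called as higher with cyclosporine plus peptide than in untreated T cells, in a setting that called 13.1% of 18906 probe sets.

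**Figure D4:**
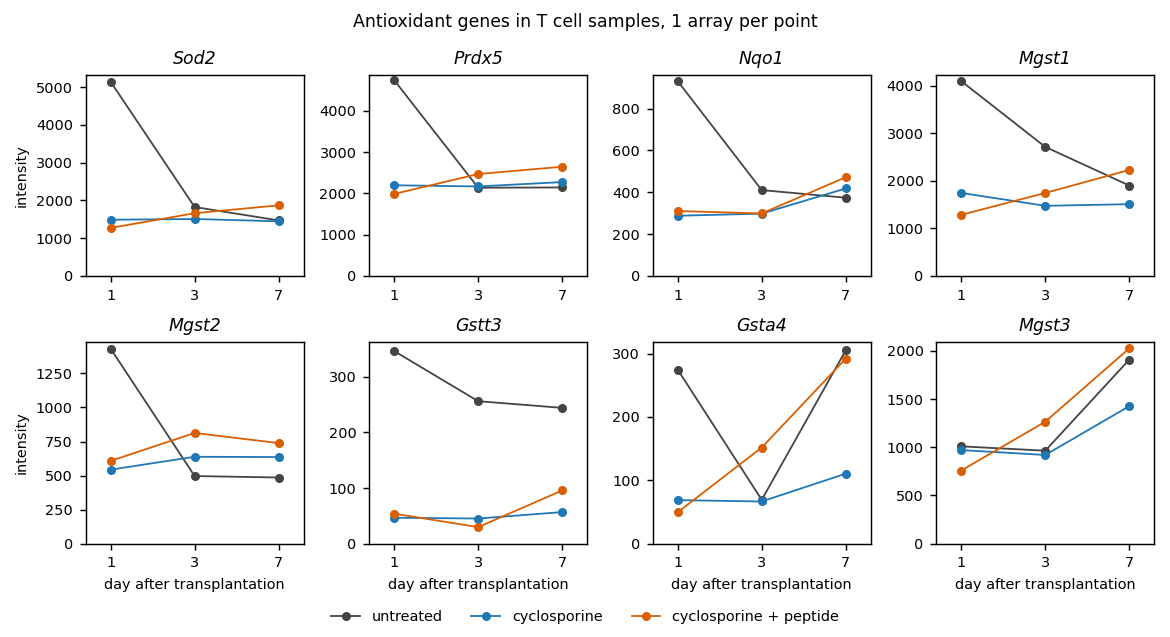
Intensity (vertical axis, linear, from 0) of 8 genes in the T cell samples against the day after transplantation, 1 array per point, coloured by treatment. The untreated day 1 array is far above the rest for Sod2, Prdx5, Nqo1 and Mgst2, the untreated series is above both treated series for Gstt3, and the 3 day 7 arrays are the highest for Mgst3.

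T cells and hearts differed in most members. Averaged over treatments and days, 10 of 53 tested members were higher in T cells and 40 lower, against 50.2% and 37.4% of 22327 probe sets. Of the 40, 7 (Gpx3, Gpx7, Gpx8, Gstm2, Gstm5, Gstt1 and Srxn1) passed the filter through the hearts, where they are high, and were not tested in T cells alone. Among the other 46 members, 10 were higher and 33 lower. Where the T cell signal was mostly below the 40th percentile, the difference is given as a lower bound, with that percentile standing in for any lower T cell value. The median difference over the members was -0.55, against 0.13 over all probe sets. Of the 50 calls, 43 were made under all 14 settings run. Centring the arrays on their medians moved the median of all tested probe sets from 0.15 to 0.25, so small differences toward T cells depend on the scaling. Tissue and any difference in preparation cannot be told apart.

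Several glutathione peroxidases separated the tissues. For Gpx3, the lowest intensity was 4574, the median 7856 and the highest 10623 in hearts, while in T cells the lowest intensity was 89.4, the median 124 and the highest 161, at least 5.68 lower on the log2 scale. Gpx8 (931 to 2144 in hearts, 30.2 to 53 in T cells) and Gpx7 (997 to 2447 and 34.5 to 81.9) were at least 3.27 and 3.30 lower in T cells. Both read below the 40th percentile on all 9 T cell arrays. Gpx1, in contrast, had overlapping intensities of 9135 to 10999.9 in hearts and 6357 to 10196 in T cells, and a difference of -0.47 ± 0.074 (adjusted p = 4.95e-05).

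The transferases went both ways. Gstm2 had intensities of 1188 to 3148 in hearts and 79.1 to 114 in T cells, at least 3.96 lower on the log2 scale. Gsta1, Gstm5 and Gsta4 were at least 3.74, 2.79 and 2.86 lower. Gstm2 and Gstm5 were below the 40th percentile on all 9 T cell arrays, Gsta1 above it on 3 and Gsta4 on 4. Gstp1 was higher in T cells, at 3749 to 6393 against 1945 to 4487 in hearts, by 0.77 ± 0.058 (adjusted p = 2.76e-08). Gsto1, the omega class enzyme that also reduces dehydroascorbate, was higher by 0.65 ± 0.050 (adjusted p = 4.14e-08), with 2986 to 3984 against 1834 to 2511. Gstm1 and Gstm4 were higher in T cells too, by 0.56 and 0.28. Gstp3 was also called as higher, but was above the 40th percentile on only 3 of 9 hearts, so no size is given. On day 3 the tissues overlapped for Gstm1, with 1613, 1402 and 1258 in hearts and 1412, 1404 and 1533 in T cells. Gstt2 did not pass (-0.025 ± 0.070, adjusted p = 0.739), and its second probe set gave 1.16 ± 0.10 (adjusted p = 1.55e-07), so no direction is given for it. The second Gpx4 probe set likewise gave 0.40 ± 0.088 (adjusted p = 0.000859), against -0.89 ± 0.032 for the one used.

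All 3 superoxide dismutases were lower in T cells, with differences of -3.29 ± 0.14 (adjusted p = 6.98e-11) for Sod3, -1.96 ± 0.18 (adjusted p = 2.29e-07) for Sod2 and -0.78 ± 0.034 (adjusted p = 1.09e-10) for Sod1. Sod2 read 5449 to 7979.8 in hearts and 1272 to 5142 in T cells, the top of the T cell range being the untreated day 1 array. All 5 peroxiredoxins were lower as well, from Prdx2 (difference -0.35 ± 0.077) to Prdx3 (-1.44 ± 0.040, with 4186 to 7613 in hearts and 1842 to 2354 in T cells). Srxn1 was at least 2.26 lower on the log2 scale, and Nqo1 had a difference of -1.43 ± 0.15 (adjusted p = 9.15e-07). For Txn1 the difference was -0.30 ± 0.049 (adjusted p = 6.88e-05), with intensities of 7167 to 14796 in hearts and 6936 to 9036 in T cells that overlapped. This average depended on the day. On day 1 Txn1 read 7167, 7167 and 7418 in hearts and 8741, 6936 and 7083 in T cells. On day 7 it read 14796, 13235 and 14252 in hearts and 7451, 7508 and 8981 in T cells. Higher in T cells were Txndc16 and Txndc11, both of the endoplasmic reticulum, by 1.64 ± 0.050 (adjusted p = 2.56e-12) and 1.31 ± 0.081 (adjusted p = 3.41e-09). Txndc16 read 1229 to 1556 in T cells and 364 to 483 in hearts. Gsr was not called (0.18 ± 0.089, adjusted p = 0.0735) but was under median centring and under quantile normalization over all arrays.

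The last comparison asked whether the day 7 minus day 1 difference depended on the tissue. It did for 26 members, with 25 higher in T cells than in hearts and 1 lower, against 23.2% and 23.5% of 22327 probe sets. Of these 26, 21 were called under all 13 settings run. Mgst3 fell in hearts and had higher day 7 values in T cells, a difference between tissues of 1.66 ± 0.21 (adjusted p = 6.73e-05). For Gsta4 it was 1.70 ± 0.56 (adjusted p = 0.0253), with a range over settings that reached an adjusted p of 0.11. Gstt2, Gstm7, Gstm5, Txnrd3, Gstk1 and Gstz1 had tissue differences of 1.59, 1.59, 1.43, 1.40, 1.29 and 1.25, all called. Gstm5 and Gstm2, the latter also called, were below the 40th percentile on all 9 T cell arrays, so their T cell values say nothing about days. Without them 24 members remain, 23 higher and 1 lower. Gsta4 and Gstm7 were above that percentile on 4 and 5 T cell arrays, and Txnrd3 and Gsta1, the latter also called, on only 3 each. Their T cell day differences are thus partly read near the floor. The second Gstt2 probe set gave 0.30 ± 0.25 (adjusted p = 0.353), so its probe sets disagreed. Txnip, which fell in hearts, read 6320.2, 6039.7 and 6516 on day 1 and 6698, 7625 and 5409 on day 7 in T cells, and the tissue difference was 1.08 ± 0.12 (adjusted p = 2.38e-05). Txn2 (0.70 ± 0.11, adjusted p = 0.000224) and Prdx3 (0.92 ± 0.098, adjusted p = 1.68e-05) also differed. The single member lower in T cells was Txn1 (-0.88 ± 0.12, adjusted p = 0.0001), which read 8741, 6936 and 7083 on day 1 and 7451, 7508 and 8981 on day 7 in T cells. Prdx5 (-0.77 ± 0.32, adjusted p = 0.0666) and Sod2 (-0.58 ± 0.44, adjusted p = 0.304) did not pass.

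**Figure D5:**
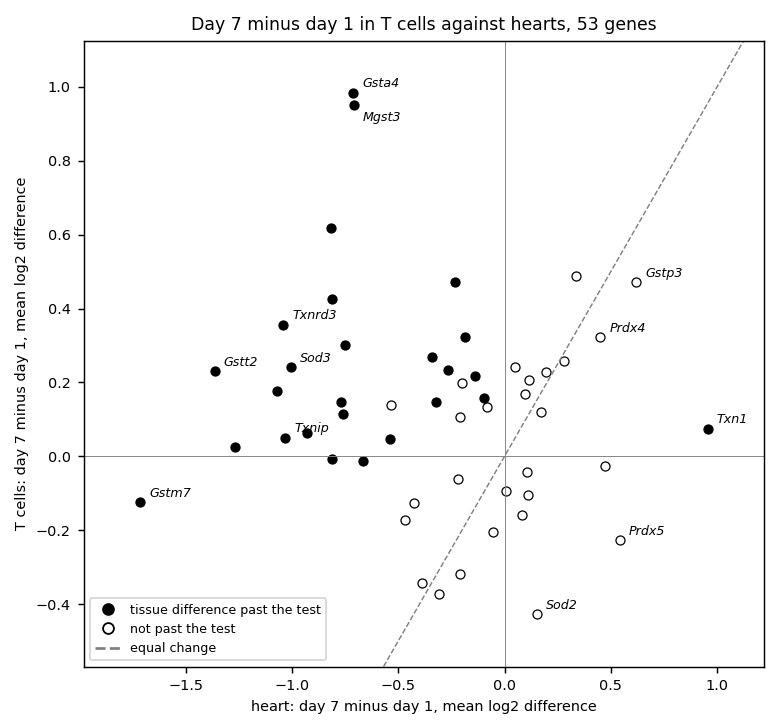
Mean log2 difference between day 7 and day 1 in T cells (vertical axis) against that in hearts (horizontal axis) for the 53 genes tested over 18 arrays, with filled points where the tissues differed by the test and a dashed line of equal change. The 53 include 7 genes not tested in T cells alone. Most filled points lie left of 0 and near 0 or above it on the vertical axis, with Gsta4 and Mgst3 highest, and Txn1 is the filled point below the line.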

How the data were processed

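Each of the 18 samples gave 1 array, prepared from biotin-labelled cRNA with an Enzo kit per the labels' protocols. The deposited values are intensities on a linear scale, 1 per probe set; the software that normalized them is not given in the sources used here. Of 31099 probe sets, 57 controls were left out, and 0.138% of values were below 0. All columns of the table belonged to these samples. Values below 0 were set to 0, 16 was added and log2 taken. R 4.3.3 with limma 3.58.1 (trend) fitted treatment and day within each tissue (4 residual degrees of freedom), or tissue with both and their interactions with tissue over 18 arrays (8), on probe sets above the 40th percentile on at least 3 arrays. P-values were adjusted by Benjamini-Hochberg over all probe sets tested. The fits were tested on simulated data. Alternatives changed the offset, filter, scaling, probe set rule and trend, fitted an additive model, and left out arrays. Members and lists were chosen with earlier results of these data known. Values on every array were given for the called members with the largest differences of 1 sign in all 3 pairs and for SOD, catalase, Nqo1, Gclc, Gclm, Gsr and Srxn1. Where fewer than 5 members passed, members were named by the largest of their smallest differences of 1 sign. The test of treatment by tissue, the untreated day 1 T cell array and members named by the lowest adjusted p were chosen after their values were seen. Gene symbols came from the platform annotation. All 60 members matched the RefSeq gene table by identifier and symbol.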

Additional observations from a re-analysis of the deposited data

Results flagged for a closer look

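The difference between day 7 and day 1 depended on the tissue for 26 of 53 members, by the test of that difference over 18 arrays. Of these, 25 were higher in T cells than in hearts and 1 lower. Over all 22327 probe sets tested, 23.2% were higher and 23.5% lower. The share of members called was thus near the background, and the direction was not. The largest member differences were those of Gsta4 (1.70 on the log2 scale, T cells minus heart), Mgst3 (1.66), Gstt2 (1.59), Gstm7 (1.59), Gstm5 (1.43), Txnrd3 (1.40), Gstk1 (1.29) and Gstz1 (1.25). All 8 fell in hearts. In T cells Gstm5 was not tested, being below the 40th percentile on all 9 arrays, and the other 7 were not called. Gsta4, Gstm7 and Txnrd3 were above that percentile on only 4, 5 and 3 T cell arrays. The second Gstt2 probe set gave 0.30. The cell markers that moved with the day in hearts are given beside those results, and their part was not tested.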

How the results depend on the processing

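No call reversed under any setting run. Leaving out 1 treatment gave 7 to 18 called members for heart day 3 minus day 1, against 18 with all arrays. The share of all probe sets called went from 27.5% to between 8.36% and 18.4%. For T cells, cyclosporine plus peptide minus untreated, leaving out 1 day gave 0 to 4 called members. The 4 came without the day 1 arrays, where 13.1% of all probe sets were called. Centring on array medians gave 1 called member for T cells day 7 minus day 1 (Mgst3, adjusted p = 0.0473). The counts for the other comparisons stayed within 1.5 times the reported ones: 28 to 37 for heart day 7 minus day 1, 28 to 36 for day 7 minus day 3, 47 to 51 for T cells minus heart and 22 to 27 for tissue by day. Weak signals, such as Gpx7, Gpx8 and Gstt3 in T cells, depend most on the offset. With 1 array per combination, the number of arrays limits the precision.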
